A study of Branchiostoma belcheri with 3 samples.

Results

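The neural miRNAs miR-9, miR-124, miR-129, miR-137, miR-153 and miR-219 were examined in gill and gut of Branchiostoma belcheri, an amphioxus, one of the invertebrate chordates. With a threshold of 3 SDs over the mean of blank spots, 21 of their 62 probes were detected in gill (33.9%, beside 27.0% of all miRNA probes), 2 in intestine (3.23%, beside 11.9%) and 1 in hepatic caecum (1.61%, beside 7.18%). With a threshold based on the median of these spots, the gut counts were 12 and 13, or 19.4% and 21.0%, beside 19.0% of all probes on each gut array. The members detected in gill were of miR-9, miR-137, miR-129, miR-219 and the 5′ arm of miR-124. The main strand of miR-124 and miR-153 had no probe over the 3 SD threshold on any array, although some of their probes passed lower ones. Probes were members when the second field of their name was miR and the leading digits of the third were the number of one of these families, for any species prefix, which gave 62 of the 1686 miRNA probes.

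The study profiled miRNAs in 3 organs of adult animals collected wild and then kept in a marine station. The groups were gill, intestine and hepatic caecum, a pouch of the gut, with 1 one-colour (Cy3) array each. The labels name no treatment, genotype, sex or age beyond adult, and each RNA was a pool of 5 adults. With 1 array per organ, array and organ cannot be told apart, and no difference between organs could be tested. The RNA came from dissected tissue, in which fewer cells of a type and less miRNA per cell cannot be told apart.

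A miRNA is a short RNA that guides silencing proteins to messenger RNAs, mainly by pairing of its seed (bases 2 to 8), and each hairpin precursor can give a miRNA from its 5′ arm (5p) and its 3′ arm (3p). miR-124 is abundant in neurons across bilaterian animals, and in vertebrates it represses genes of non-neuronal cells. In vertebrates, miR-9 acts in neural progenitors and differentiating neurons, miR-137 in neuronal maturation, and miR-153 on proteins of synaptic vesicle release. In mammals miR-129 is enriched in brain and also acts in the assembly of cilia. miR-219 is known in vertebrates for its part in the differentiation of oligodendrocytes, the myelin-forming cells.

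The sequences below carry the comparisons that follow. They are those the array files list for each probe, 5′ to 3′, with the seed in capitals. Each family is shown by its brightest member in gill, with relatives that were detected or dim there. Some carry an amphioxus prefix (bbe for B. belcheri, bfl for B. floridae). The other prefixes stand for zebrafish (dre), the frog Xenopus tropicalis (xtr), sea lamprey (pma), the sea squirts Ciona intestinalis (cin) and Ciona savignyi (csa), the larvacean Oikopleura dioica (odi), an acorn worm (sko), a sea urchin (spu) and the worm Xenoturbella bocki (xbo).
dre-miR-9-5p: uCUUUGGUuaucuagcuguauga
xtr-miR-9b-5p: uCUUUGGUuaccuagcuguauga
sko-miR-9: uCUUUGGUuaucuagcuguau
cin-miR-9-5p: uCUUUGGUuauccaguuuga
bbe-miR-9-3p: uAAAGCUAgguaaccaaaaca
dre-miR-9-3p: uAAAGCUAgauaaccgaaagu
bfl-miR-137: uAUUGCUUgagaauacacguga
sko-miR-137: uAUUGCUUgagaauacacguag
dre-miR-137: uUAUUGCUuaagaauacgcgua
xtr-miR-137: uAUUGCUUaagaauacgcguag
dre-miR-129-5p: cUUUUUGCggucugggcuugcu
bfl-miR-129a-5p: cCUUUUUGugguuuggggcuuuu
xtr-miR-129: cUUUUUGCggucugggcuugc
cin-miR-124-2-5p: cGUGUUUAcuguggaccuug
bfl-miR-124-5p: aGUGUUCAcggcgguccuuaau
spu-miR-124: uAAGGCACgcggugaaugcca
csa-miR-219: uGAUUGUCcaaacgcaauaca
xtr-miR-219: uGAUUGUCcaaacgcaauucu
spu-miR-219-5p: uGAUUGUCcgaacgcaauucuug
bbe-miR-153-3p: uUGCAUAGucucaaaaguga
bfl-miR-2061: uUGCAUAGguacauuggucagu
The last is no member and is shown because it carries the same seed as miR-153.

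Each miRNA probe had 2 spots on an array, and values are the scanner's median density of a spot, a linear intensity from which no background had been subtracted. The mean over the 304 spots without a probe was 107 ± 10.6 (SD) on the gill array, 115 ± 34.9 on that of intestine and 185 ± 144 on that of hepatic caecum. A probe was called detected when the mean of its spots lay over 3 SDs above that mean, which set thresholds of 139, 220.1 and 618. These called 27.0% of all miRNA probes in gill, 11.9% in intestine and 7.18% in hepatic caecum. The hepatic caecum array was read with its grid turned by 180°. Its control spots then correlated with those of the other arrays at r = 0.977 on the log2 scale, against 0.970 with the rows mirrored and 0.261 as deposited. The control spots thus hardly told the turned from the mirrored grid, and the miRNA spots did, at 0.870 when turned, -0.009 when mirrored and 0.006 as deposited. Errors given as ± for a probe are SDs of its 2 spots and cover neither animals nor arrays. Densities of different probes also depend on how each binds and are not compared as amounts of miRNA, and probes of near-identical sequence can bind the same molecule.

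In gill, the 21 detected members were 33.9% of the 62, beside 27.0% of all probes. They comprised 6 of 12 probes of miR-9, 2 of 10 of miR-124, 4 of 8 of miR-129, 3 of 8 of miR-137, 0 of 13 of miR-153 and 6 of 11 of miR-219. In intestine, the share was 3.23% of the members beside 11.9% of all, and in hepatic caecum 1.61% beside 7.18%. Only sko-miR-9 was detected on all 3 arrays, 19 members were detected in gill alone, and 41 on none. Of all 1686 probes, 116 were detected on all 3 arrays, 257 in gill alone and 1223 on none. Of the 21, 11 had a gill density over the intestine threshold and 7 had one over the hepatic caecum threshold, so the others would not have passed there at the same density. Of these 11, 1 was detected in intestine, beside 185 of 309 such probes among all. Of the 7, 1 was detected in hepatic caecum, beside 114 of 217. These shares are not matched for brightness, as gill densities reached 1882.1 among the members and 65387.7 among all probes. Density above the median blank spot was also taken as a percent of that in gill, for these 7 and 217. Its median in intestine was 9.66% for the 7, of which 6 were below the 12.2% of the 217. In hepatic caecum it was 22.6%, with 2 of the 7 below the 16.2% of the 217. Of the 11 amphioxus members, 4 were detected in gill (36.4%), beside 161 of all 260 amphioxus probes (61.9%), whereas of the 51 members of other species 17 were detected (33.3%), beside 294 of 1426 (20.6%). The 62 members have 62 different target sequences. Whether amphioxus also has a sequence listed under another prefix was not analysed here.

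**Figure D1:**
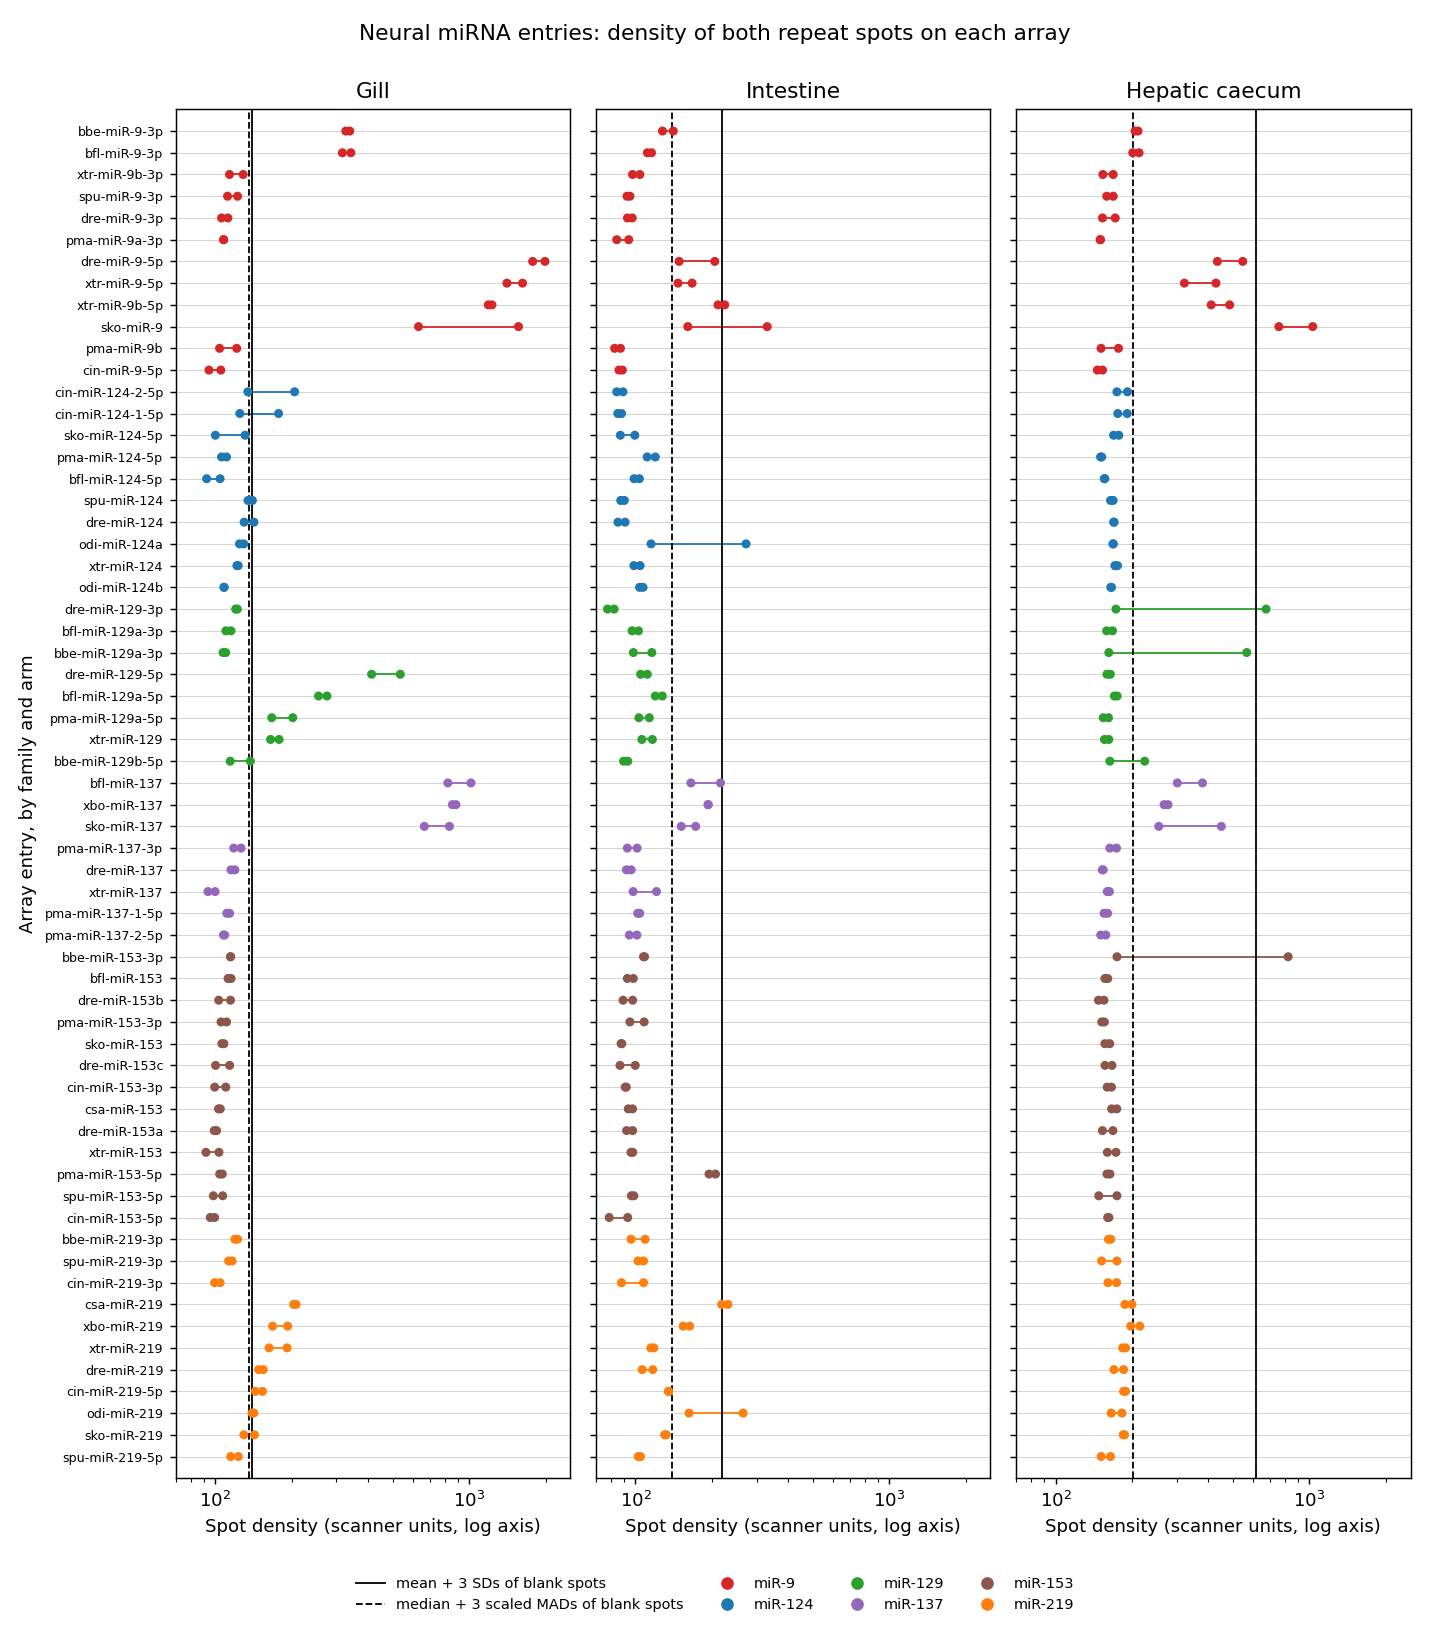
Density of both spots (points joined by a line, scanner units, log axis) of each of the 62 neural miRNA probes on the gill, intestine and hepatic caecum arrays, coloured by family, with the thresholds from blank spots as vertical lines (solid, mean plus 3 SDs; dashed, median plus 3 scaled median absolute deviations, MADs). The miR-9-5p and miR-137 points stand furthest right in gill, and wide gaps between the spots of a probe mark sko-miR-9, odi-miR-124a, dre-miR-129-3p, bbe-miR-129a-3p and bbe-miR-153-3p.

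The 5′ arm of miR-9, the main arm in vertebrate brain, was detected in gill by 4 of 6 probes. dre-miR-9-5p had spot densities of 1987 and 1777 in gill, 205 and 149 in intestine and 546 and 434 in hepatic caecum. xtr-miR-9-5p, which is 1 base shorter at its 3′ end, had 1621 and 1407 in gill, 167 and 147 in intestine and 428 and 322 in hepatic caecum. xtr-miR-9b-5p had 1228 and 1188, 211 and 225, and 485 and 410.2 in the same order. These 3 probes were detected in gill alone, with gill spots apart from all their other spots, although 1 intestine spot of xtr-miR-9b-5p was over that array's threshold. Such densities are not scaled between arrays, and 1492 of all 1686 probes were dimmer in intestine than in gill. After quantile normalization over all probes, the 3 had log2 levels of 9.25, 8.96 and 8.66 in gill. The levels were 7.69, 7.45 and 8.33 in intestine and 9.40, 8.92 and 9.25 in hepatic caecum.

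sko-miR-9, 2 bases shorter than the zebrafish sequence, had 1562 and 631 in gill, 330.2 and 161 in intestine and 758 and 1030.0 in hepatic caecum. Its gill spots differed 2.48-fold and its intestine spots 2.05-fold, and 1 of its intestine spots was below the threshold there. Its spots in gill and hepatic caecum overlapped, and its intestine spots were lower than both. The remaining probes of this arm were at background: cin-miR-9-5p had 99.7 ± 7.6 in gill and pma-miR-9b 113 ± 12.4.

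The 3′ arm, miR-9-3p, was represented by both amphioxus species. bbe-miR-9-3p had 327 and 338 in gill, 128 and 141 in intestine and 206 and 211 in hepatic caecum. bfl-miR-9-3p, the same sequence with 1 more base at the 5′ end, had 316 and 342, 116 and 111, and 201 and 213. Both were detected in gill alone, and their spots agreed within 1.08-fold there. The 4 probes of other species lay between 108 and 121 in gill, none of them detected.

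miR-137 was detected in gill by 3 probes of its 3′ arm and by none on the gut arrays. bfl-miR-137 had 1016 and 824 in gill, 216 and 165 in intestine and 379 and 302 in hepatic caecum. xbo-miR-137 had 872 ± 19.6 in gill, 193 ± 0 in intestine and 272 ± 6.9 in hepatic caecum. sko-miR-137 had 750.4 ± 119.9, 162 ± 14.8 and 352 ± 138. For each of the 3 the gill spots, not scaled between arrays, stood above every gut spot, and every intestine spot was below that array's threshold. pma-miR-137-3p, dre-miR-137 and xtr-miR-137 were at 122, 117 and 96.6 in gill, and the brighter of the probes of the 5′ arm, pma-miR-137-1-5p, was at 112. After quantile normalization over all probes, bfl-miR-137, xbo-miR-137 and sko-miR-137 had log2 levels of 8.37, 8.34 and 8.2 in gill. The levels were 7.95, 8.0 and 7.53 in intestine and 8.74, 8.06 and 8.7 in hepatic caecum. On that scale bfl-miR-137 and sko-miR-137 were not higher in gill than in hepatic caecum.

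miR-129 was detected in gill by 4 of 5 probes of its 5′ arm and by none of 3 of its 3′ arm. dre-miR-129-5p had 535 and 413 in gill, 105 and 111 in intestine and 159 and 164 in hepatic caecum. The amphioxus probe bfl-miR-129a-5p had 275 and 255, 119.7 and 128, and 175 and 171 in that order. Both gut values of each were close to the blank spots of their arrays. pma-miR-129a-5p had 184 ± 24.7 in gill, 108 ± 7.2 in intestine and 158 ± 5.3 in hepatic caecum. xtr-miR-129 had 172 ± 9.3, 111 ± 7.5 and 159 ± 4.4. The B. belcheri paralogue bbe-miR-129b-5p was not detected, at 126 ± 16.2, 91.6 ± 2.5 and 194 ± 42.9.

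Of the 3′ arm of miR-129, the arm named in work on cilia in human cells, dre-miR-129-3p had 121 ± 1.3 in gill, 80.1 ± 3.4 in intestine, and hepatic caecum spots of 675 and 173. bbe-miR-129a-3p had 109 ± 1.8 in gill, 107 ± 12.7 in intestine, and hepatic caecum spots of 162 and 566. In each case 1 of the hepatic caecum spots lay at the level of the blank spots, so the raised mean rested on the other. bfl-miR-129a-3p had 113 ± 3.7, 99.9 ± 4.1 and 163 ± 6.2.

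miR-124, the most widely conserved marker of neurons in the set, gave weak signals. Its main strand had 0 of 5 probes detected. spu-miR-124 had 135 and 139.9 in gill, 89 ± 2 in intestine and 167 ± 2.7 in hepatic caecum. With a gill mean of 137.2 it was the undetected member nearest the gill threshold, and the detected member nearest to it was odi-miR-219, at 141. dre-miR-124, odi-miR-124a, xtr-miR-124 and odi-miR-124b had gill densities of 136, 127, 122 and 108. Under a threshold of 2 SDs in place of 3, spu-miR-124 and dre-miR-124 passed in gill, so the main strand was not separable from background at this signal and its absence was not shown.

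The 5′ arm of miR-124 gave the family's detected members. cin-miR-124-2-5p had 205 and 134 in gill, 89.3 and 84.4 in intestine and 175 and 192 in hepatic caecum. cin-miR-124-1-5p had 177 and 125, 85.2 and 88.1, and 176 and 192. Each had 1 gill spot under the threshold. The amphioxus probe of this arm, bfl-miR-124-5p, differs from cin-miR-124-2-5p at 6 positions and was at 98.4 ± 8.4 in gill, 101 ± 3.4 in intestine and 156 ± 0.5 in hepatic caecum, none of them detected.

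miR-219 was detected in gill by 6 of 8 probes of its 5′ arm, which share the seed GAUUGUC, at densities close to the threshold. csa-miR-219 had 208 and 203 in gill, 231 and 218.5 in intestine and 199.8 and 188 in hepatic caecum. It was detected in gill and intestine, although 1 intestine spot was below the threshold of that array, and 5 of 304 blank spots there were at or over its mean. xbo-miR-219 had 180.3 ± 17.4 in gill, 159 ± 6.7 in intestine and 206 ± 12 in hepatic caecum. xtr-miR-219 had 177 ± 20.4, 117 ± 2.3 and 186 ± 3.5. These and the following were detected in gill alone.

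dre-miR-219 had 151 ± 4.5 in gill, 112 ± 7.6 in intestine and 178 ± 10.9 in hepatic caecum. cin-miR-219-5p had 149 ± 6.7, 135 ± 0.2 and 187 ± 2.4. odi-miR-219 had 141 ± 1.6, 214 ± 72.8 and 174 ± 12, and its intestine spots differed 1.63-fold. All 6 thus spanned only 141 to 206 in gill. sko-miR-219 and spu-miR-219-5p, at 136 and 119, were not detected. The amphioxus probe was of the other arm, bbe-miR-219-3p, and was at 121 ± 2 in gill, 103 ± 9.3 in intestine and 163 ± 2.5 in hepatic caecum.

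No probe of miR-153 was over the 3 SD threshold on any array. In gill, the 13 probes lay between 97.4 and 115, around the blank mean of 107. bbe-miR-153-3p had 115 and 115 in gill, 108 and 109 in intestine and 175 and 824 in hepatic caecum, where its spots differed 4.72-fold. bfl-miR-153 had 114 ± 2.2, 95.5 ± 3.6 and 159 ± 2.8. The brightest in intestine was pma-miR-153-5p, at 201 ± 8.3, beside 105 ± 1.7 in gill and 162 ± 3.1 in hepatic caecum. With 2 SDs or with the median plus 3 scaled MADs as threshold, pma-miR-153-5p passed in intestine and bbe-miR-153-3p in hepatic caecum, the latter on 1 of its spots. The seed of the 3′ arm, UGCAUAG, was also carried by a detected probe: the amphioxus bfl-miR-2061 has the same 7 bases and a different sequence after them, and it had 11672 ± 2153 in gill, 4599 ± 841 in intestine and 3978 ± 98.3 in hepatic caecum.

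Within an arm, probes that differ by a few bases differed in detection in gill. Positions are counted from 1 at the 5′ end of the brightest probe, whose base is written first. Against dre-miR-9-5p, xtr-miR-9b-5p differs by U11C and was detected, while cin-miR-9-5p differs by U13C, C16U, G18U and U19G, and pma-miR-9b by U1C, C2U, U11A, C12G and G18U. Against bfl-miR-137, the detected sko-miR-137 differs by G21A and A22G, and the detected xbo-miR-137 by G21U and A22G, both at the 3′ end. The undetected pma-miR-137-3p, dre-miR-137 and xtr-miR-137 all carry G9A beside changes at the end, and the latter pair also A17G. pma-miR-137-3p and dre-miR-137 also have 1 more base at the 5′ end, so their seed is UAUUGCU in place of AUUGCUU. Against bbe-miR-9-3p, dre-miR-9-3p and pma-miR-9a-3p share G10A, A16G, C20G and A21U, and spu-miR-9-3p has A12U, A19G, C20A and A21U. Like the detected bfl-miR-9-3p, spu-miR-9-3p also has 1 more base at the 5′ end.

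Against dre-miR-129-5p, xtr-miR-129 has no substitution and lacks 1 base at the 3′ end, and pma-miR-129a-5p has C12U alone. bfl-miR-129a-5p has 6 substitutions and its start shifted by 1 base, and it was detected in gill like these. Among miR-219 probes, xbo-miR-219, xtr-miR-219, dre-miR-219 and the undetected sko-miR-219 share A19U and A21U against csa-miR-219, and spu-miR-219-5p adds A10G. The median GC content was 36.4% for the members detected in gill and 36.4% for the others, beside 47.6% and 45.0% over all probes.

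**Figure D2:**
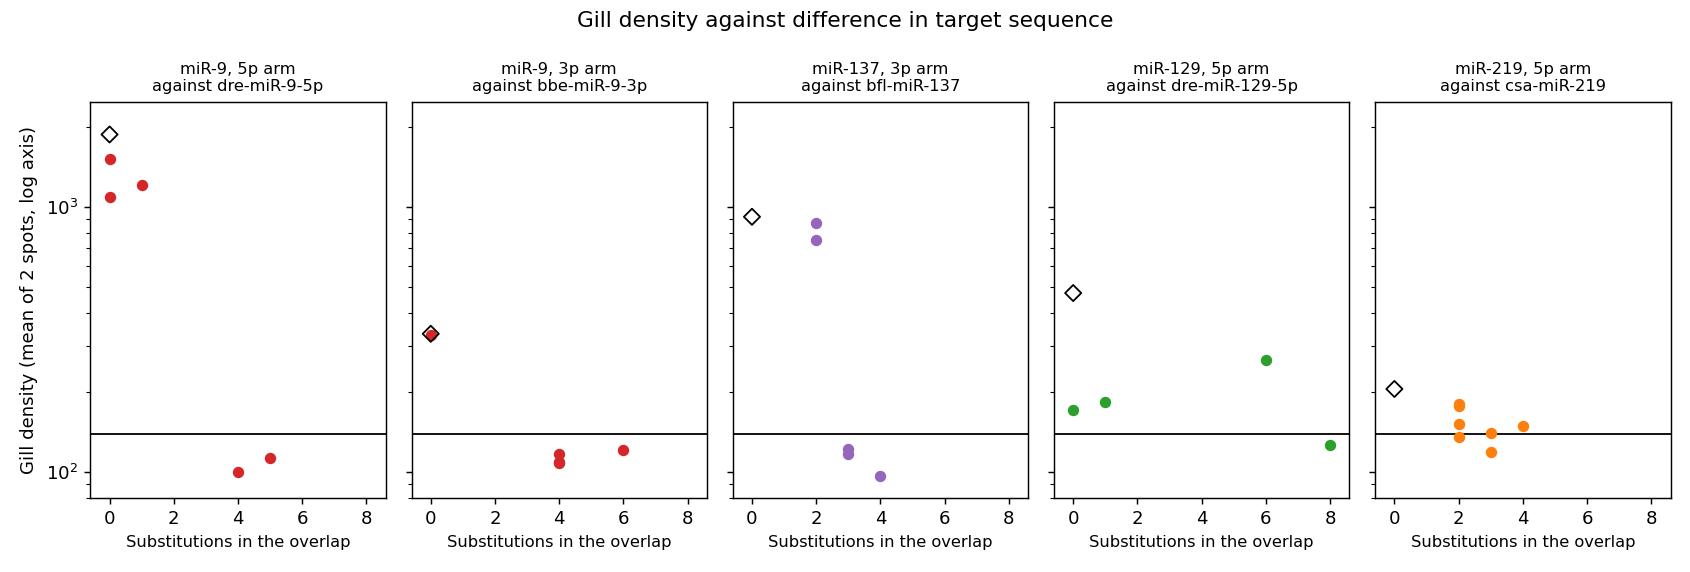
Gill density (mean of 2 spots, log axis) against the number of substitutions in the overlap with the brightest probe of the arm (open diamond), for 5 arms with a probe detected in gill; the horizontal line is the gill threshold. Probes of miR-9 and miR-137 fall to background at 3 or more substitutions, whereas bfl-miR-129a-5p stays above the line at 6.

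The design asks how the organs differ. After background correction, log2 conversion and quantile normalization over all probes, only sko-miR-9 and csa-miR-219 could be compared between organs that both detected them. csa-miR-219 was 1.35 ± 0.07 higher in intestine than in gill (log2, SD from spots). The SDs of these differences come from the log2 spot values before scaling between arrays. After normalization, first spots alone gave 1.54 for csa-miR-219 and second spots alone 1.17. The difference of 1.35 was 0.90 above the median of 0.45 of the 197 probes detected in both. Of these 197, 39.6% were higher by 2-fold or more in intestine. Without scaling between arrays the csa-miR-219 difference was 0.23, under 2-fold, and 1.85 above the median. sko-miR-9 differed by 0.02 ± 1.26 between intestine and gill, less than the spread of its spots, but was -2.21 without scaling between arrays, where the median of the 197 was -1.62. In hepatic caecum it was 2.49 ± 1.02 above gill and 2.46 ± 0.89 above intestine, beside 41.0% and 24.1% of probes with such 2-fold differences in these pairs.

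The sign of the sko-miR-9 difference between hepatic caecum and gill also turned with the scaling. Without normalization between arrays it was -0.26, and with centring on 5S rRNA spots -1.69, while the median probe detected in both moved from 0.70 to -1.77 and to -3.20. Relative to that median, sko-miR-9 was 1.79 higher after quantile normalization and 1.52 higher in each of those alternatives. These alternatives differ by the same shift for all probes of an array, so the value relative to the median cannot differ between them. On first spots alone sko-miR-9 was 0.78 above the median, and on second spots alone 2.18. Since its spots differ over 2-fold in gill and intestine, no order of the organs is given from sko-miR-9.

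For members detected in gill and not in another organ, only a lower bound on the gill excess was available. It was taken from the probe's own level in the other organ or, if higher, the lowest level of any probe detected there. Against intestine this applied to 19 members, and dre-miR-9-5p alone had a bound over 2-fold, at least 2.18-fold higher in gill. xtr-miR-9-5p was at least 1.79-fold higher, and 13 members had no bound over 1. Among all 258 probes in this position 8.91% had a bound of 2-fold or more. Over 9 other settings of the scanner values the bound of dre-miR-9-5p ran from 1.89-fold to 10.3-fold. Against hepatic caecum none of 20 members had such a bound, beside 8.58% of 338 probes, and csa-miR-219 had none between intestine and hepatic caecum, beside 16.5% of 85.

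**Figure D3:**
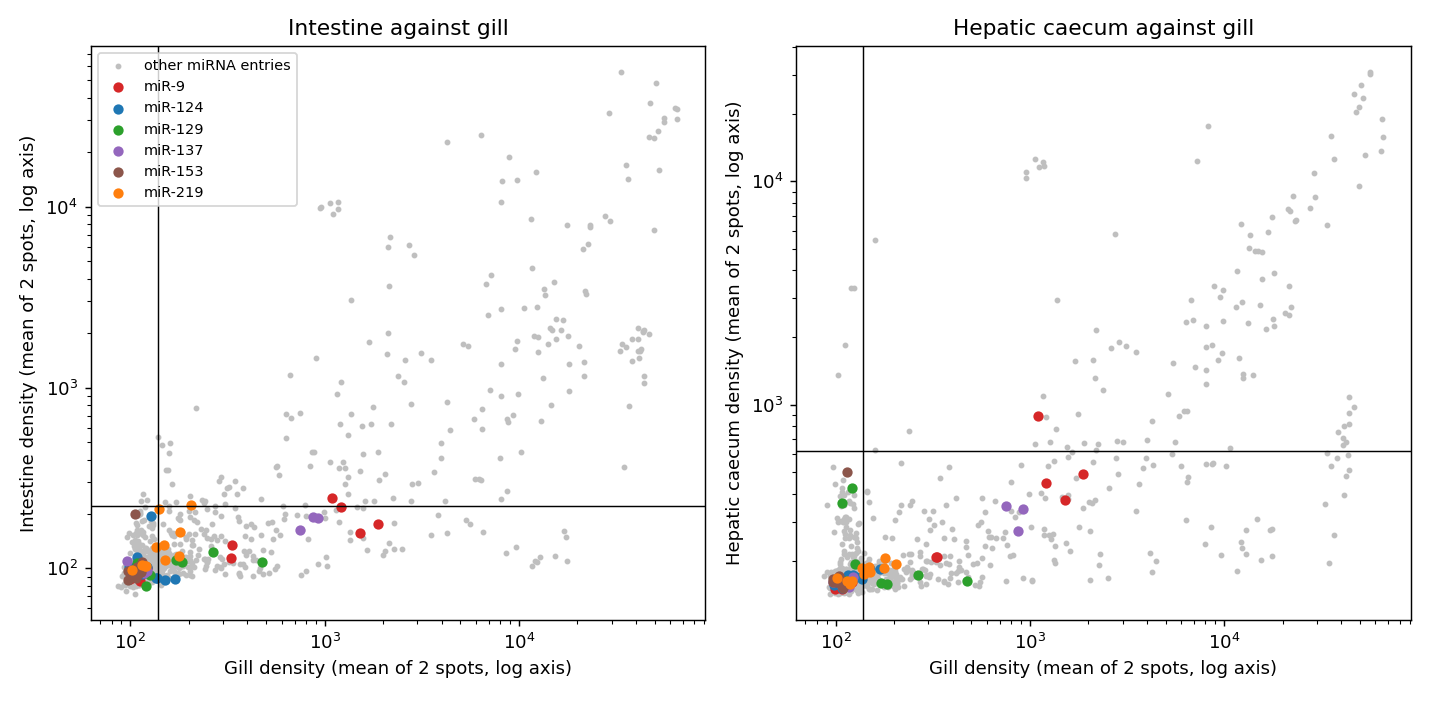
Density of every miRNA probe (mean of 2 spots, log axes) in intestine (left) and hepatic caecum (right) against gill, with the neural families coloured and all others grey; lines are the thresholds of each array. In intestine, sko-miR-9 and csa-miR-219 lie above the horizontal line, and in hepatic caecum sko-miR-9 alone of the neural points does.

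The counts in the gut depended on how the blank spots were read. With the median plus 3 scaled MADs as threshold, at 136, 139 and 201, the calls were 23, 12 and 13 members. These were 37.1%, 19.4% and 21.0% of the members, beside 28.2%, 19.0% and 19.0% of all probes. The 12 in intestine included 4 of miR-9-5p, 3 of miR-137, 3 of miR-219, odi-miR-124a, whose spots differed 2.37-fold, and pma-miR-153-5p. The 13 in hepatic caecum included 6 of miR-9 and 3 of miR-137. The others were xbo-miR-219, dre-miR-129-3p, bbe-miR-129a-3p and bbe-miR-153-3p, each with 1 spot below that threshold. No member exceeded the highest blank spot of either gut array, 477 and 1549, beside 8.13% and 4.69% of all probes, and 12 members exceeded that of gill, 203, which are 19.4% beside 19.2% of all.

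**Figure D4:**
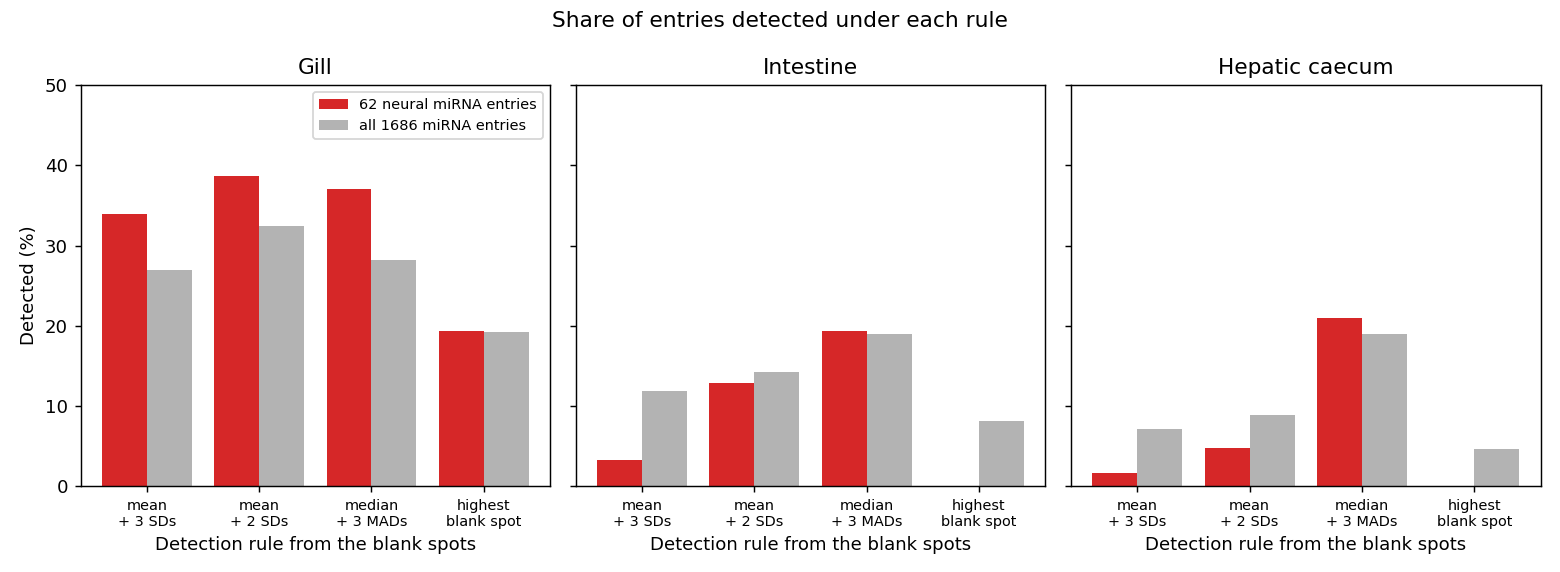
Percent of the 62 neural miRNA probes (red) and of all 1686 miRNA probes (grey) detected on each array under 4 thresholds from the blank spots. The gut bars of the neural probes rise to the level of all probes under the median plus 3 MADs and are at 0 under the highest blank spot.

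miR-9 was the one family of the set with a probe on all 3 arrays, so its profile could be set against the 42 other such families. By Euclidean distance between normalized log2 levels centred over the 3 organs, the nearest were miR-33 at 0.86, miR-375 at 0.95 and miR-22 at 1.02, beside a median distance of 1.89. The profile of miR-9 rests on sko-miR-9 alone and, as above, on the scaling.

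Other miRNAs linked to neurons or sensory cells in vertebrates had 16 of 56 probes detected in gill (28.6%, beside 27.0% of all), 3 in intestine (5.36%, beside 11.9%) and 0 in hepatic caecum (beside 7.18%). The brightest in gill was dre-miR-7a of the miR-7 family, which is linked to neurosecretory cells, at 8749.9, and all 3 detected in intestine were of miR-7. In the sensory cluster, sko-miR-96-5p had 570.3 in gill, bbe-miR-183-5p 443 and bfl-miR-182b-3p 165. dre-miR-138 and dre-miR-212 stood at 140.5 and 141, and no probe of miR-128, miR-132 or miR-218 was detected on any array. Muscle, another tissue the dissected organs could hold, was followed by miR-1, miR-133 and miR-206. In gill, 15 of 35 probes were detected (42.9%, beside 27.0% of all), at up to 748. In intestine, 4 were detected (11.4%, beside 11.9%), all miR-1, and in hepatic caecum 0 (beside 7.18%). The probes of the list ranged from 99.1 to 748 in gill, 84.3 to 726 in intestine and 149.9 to 272 in hepatic caecum, and the part of muscle or nerve content in the neural signals was not tested.

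Under the probe names deposited with the hepatic caecum array, 5 members appeared bright there, and each takes the spots of another miRNA once the grid is turned. pma-miR-9a-3p had 11588 under its deposited name, on spots that belong to cin-miR-31 in the turned grid, and 150.1 when turned. xbo-miR-219 had 3392, on spots of dre-miR-10a-5p, and 206 when turned, and xbo-miR-137 had 3277, on spots of xtr-miR-10a, and 272 when turned. bfl-miR-153 had 1573 (bfl-miR-100-3p) and sko-miR-124-5p 1375 (pma-miR-216a-5p), against 159 and 173 when turned. The authors' deposited table follows the deposited names, with 16695.4 for pma-miR-9a-3p, 12704.55 for xbo-miR-137 and 8527.82 for xbo-miR-219 in hepatic caecum. For dre-miR-9-5p the authors' deposited table gives 817 in gill, 103 in intestine and 16.4 in hepatic caecum. The last follows the deposited name, under which the scanner density was 172.4, against 489.9 when turned, so the 3 values are not read as a series.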

How the data were processed

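Per the labels' protocols, RNA below 300 nt was poly(A)-tailed, tagged and stained. The scanner files hold, per the file headers, a median density for each of 3968 spots (128 rows, 31 columns), 2 per miRNA probe; background had not been subtracted. The authors' deposited series table holds 1 processed intensity per probe, whose background correction and scaling are not stated; it served as an alternative. The columns of sample values without a sample numbered 0.

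Densities were corrected by normexp (offset 50) on all spots, converted to log2, averaged over the 2 spots and quantile-normalized over all miRNA probes (limma 3.58.1, R 4.3.3; tables in Python 3.11.15, pandas 2.3.3). These steps were tested on simulated data. Detection required a mean density over the blank mean plus 3 SDs, and a difference a change of at least 2-fold between organs that both detected the probe. Within each array the 2 spots correlated at 0.995 (gill), 0.974 (intestine) and 0.936 (hepatic caecum), and 2 gill spots were at the top of the scanner range. The number of arrays limits the precision. Named were members detected on any array, all amphioxus members and, per family and arm, the brightest in gill.

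The members and lists were chosen with earlier results of these data known. Genomic positions of the miRNAs were not analysed here.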

Additional observations from a re-analysis of the deposited data

How the results depend on the processing

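The gill count of 21 members stayed between 19 and 24 under 5 of 6 other rules. It was 19 with both spots required (30.6%, beside 24.7% of all probes) and 24 at 2 SDs (38.7%, beside 32.4%). With the highest blank spot as threshold it was 12 (19.4%, beside 19.2%). The intestine count of 2 became 8 at 2 SDs (12.9%, beside 14.2% of all probes), 12 at 3 MADs (19.4%, beside 19.0%), 0 with the highest blank spot (beside 8.13%) or with both spots required (beside 185 of all 1686 probes), 4 on first spots (6.45%, beside 11.9%) and 1 on second spots (1.61%, beside 12.3%). The hepatic caecum count of 1 became 3 at 2 SDs (4.84%, beside 8.9%), 13 at 3 MADs (21.0%, beside 19.0%), 0 with the highest blank spot (beside 4.69%), 2 on first or on second spots (3.23%, beside 7.47%), and 0 under the deposited names, where bright blank spots raise the threshold (beside 0.237%). With both spots required it remained 1 (beside 6.47%).

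For sko-miR-9, intestine minus gill (0.02) was -2.21 without scaling between arrays, -1.57 centred on 3 5S rRNA probes, -1.96 on 23 spike-ins and -1.92 on the 75th percentile. Hepatic caecum minus gill (2.49) became -0.26, -1.69, -0.49 and -0.02 under these 4 settings. It was -2.13 under the deposited names and -3.16 in the authors' deposited table, which follows them. Both take hepatic caecum spots other than those of sko-miR-9 in the turned grid. The median of all 12 miR-9 probes, of which 1 was detected in hepatic caecum, was -0.02. Hepatic caecum minus intestine (2.46) became -0.12 on 5S rRNA, 1.47 on spike-ins, 1.45 on first spots and 3.71 on second spots. With the same limits it was -2.14 under the deposited names, -2.62 in the authors' deposited table and 0.21 over all 12.

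For csa-miR-219, intestine minus gill (1.35) was 0.23 without scaling, 0.87 on 5S rRNA, 0.48 on spike-ins and 0.52 on the 75th percentile. It was 2.66 on the median of probes detected on all arrays, 1.17 without background correction, and 1.54 and 1.17 on first and second spots. Over all 11 miR-219 probes, of which 1 was detected in intestine, the median was 0.17. The cause of these shifts was not tested beyond the scaling itself. Amphioxus probes alone gave no value, since none was detected in both organs of a pair, and with 1 array per organ no replicate could be left out. No paired analysis was possible because each organ has 1 array. Signal over background limits the gut values.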

Other observations

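Of the 24 seeds among the members, 12 are held by over 1 member and 9 by a member detected in gill. Besides miR-153, 3 seeds are shared with probes of other numbers. odi-miR-1493 has the seed of spu-miR-219-3p and a gill density of 2517 ± 315, beside 128.6 in intestine and 168 in hepatic caecum, whereas spu-miR-219-3p was at 115 in gill. dre-miR-722 has the seed of dre-miR-129-5p and was at 360.4 in gill with an SD of 356 between its spots, so its signal rested on 1 spot. sko-miR-79, with the seed of bfl-miR-9-3p, was at 107 in gill.

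Repeat spots of the members differed 1.5-fold or more for 2 members in gill, 3 in intestine and 4 in hepatic caecum, or 3.23%, 4.84% and 6.45%. Over all miRNA probes the shares were 1.42%, 4.03% and 5.87%.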
